A study of Mus musculus with 3 samples.

Results

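The genes described here are 36 components and targets of the hypoxia response of mouse cells, chosen by symbol from a table of 22739 named genes: the subunits of the hypoxia-inducible factors (HIF), the enzymes that sense oxygen for them, and target genes outside glycolysis. All 36 symbols were found. Expression was measured by RNA-seq, with 1 library per line, in 3 cell lines from pancreatic tumours of mice (Mus musculus), which the labels place at a localized (HI-Panc-L), an invasive (HI-Panc-I) and a metastatic (HI-Panc-M) stage of one progression model. All 3 lines came from tumours of transgenic mice whose genotype label includes p16-/-, arose without an immortalization step, and were cultured in DMEM plus 10% FBS (fetal bovine serum). According to a treatment text shared by all 3 lines, hypoxic models received cobalt chloride (100 ng/ml, 24 h), but it is not stated that these very libraries came from treated cells. No untreated partner was analysed here, so the values are levels in 3 lines and not responses to cobalt. By the tissue labels the localized line is from body wall, the invasive line from pancreatic tissue and the metastatic line from liver. If the localized and invasive lines were exchanged, the sign of the comparison between them would turn and the comparisons of each with the metastatic line would change places.

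In cells with oxygen, prolyl hydroxylases of the Egln family mark the HIF alpha subunits, the Vhl ubiquitin ligase recognizes the mark, and the subunits are degraded. Without oxygen the alpha subunits persist, pair with the beta subunit Arnt, and bind short DNA elements with the core ACGTG or GCGTG near target genes. Cobalt ions interfere with the iron-dependent hydroxylases and are used in culture to imitate hypoxia. Because alpha subunits are controlled mainly as proteins, their transcript levels do not report HIF activity.

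Levels are given as FPKM (fragments scaled to transcript length and library size), a scale per length on which genes can be set side by side. Differences between libraries are in log2(FPKM + 1), a scale that shrinks the fold of low genes, and a difference of 1 (2-fold) was called. Counts include genes whose 3 libraries average 1 FPKM or more, which held for 11404 genes in all and for 34 of the 36. Hif3a and Rora did not. With 1 library per line there is no replicate check and no p-value, and every comparison is between these libraries. The libraries had estimated depths of 45500000 (localized), 41000000 (invasive) and 43500000 (metastatic) fragments. Epithelial markers summed to 1195, 6390 and 6897 FPKM in stage order (localized first, metastatic last), with Krt7 at 0.793, 598 and 1077, Epcam at 0.209, 1.31 and 2.63, and Cldn4 under 0.1 FPKM in all 3. Fibroblast markers summed to 529, 86.1 and 8.53 FPKM. All 6 endothelial, all 6 hepatocyte and all 5 islet markers stayed under 1 FPKM, and the acinar genes Prss1, Cpa1 and Pnlip were listed at 0. Of 7 acinar markers 6 stayed under 1 FPKM in every library, and of 5 leukocyte markers in the table only Cd68 was above it. Values given 3 in a row stand in stage order throughout. The part of the epithelial and fibroblast differences in the values below was not tested, and fewer cells of a type and less RNA per cell cannot be told apart in such libraries.

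Of the 34 hypoxia genes with a mean of at least 1 FPKM, some were at least 2-fold higher and some at least 2-fold lower than in the localized line. This held in the invasive line, the metastatic line or both. In the invasive against the localized library, 7 of the 34 genes were at least 2-fold higher (20.6%, against 8.78% of all genes) and 4 at least 2-fold lower (11.8%, against 6.07%). The 7 were Epas1, Egln3, Adm, Stc1, Stc2, Ddit4 and Bhlhe40, and the 4 were Arnt2, Car9, Angptl4 and Bhlhe41. In the metastatic against the localized library the counts were again 7 higher (9.08% of all genes) and 4 lower (7.29%), with Ankrd37 in place of Stc1 among the higher ones. Both comparisons use the same localized library. In the metastatic against the invasive library only Adm was past 2-fold higher (1 of 34, 2.94%, against 1.33% of all genes) and 0 were lower (1.67% of all genes). Both of these counts are near the shares over all genes. The median difference of the 34 genes from the localized library was 0.22 in the invasive and 0.38 in the metastatic line, and 0.14 separated the metastatic from the invasive line. Over all genes the medians of these 3 comparisons lay within 0.01 of 0. With a rule of 1.5-fold, 11 of the 34 were higher (15.1% of all genes) and 5 lower (11.9%) in the invasive against the localized library. For metastatic against localized these counts were 15 (15.9% of all genes) and 5 (14.1%), and for metastatic against invasive 3 (3.51%) and 2 (5.35%). Epas1, Arnt2 and Stc1 reached the mean of 1 FPKM only through the libraries in which they are high. With a minimum mean of 5 FPKM, which removes them and Car12, the counts were 5 higher (8.28% of all genes past that minimum) and 3 lower (4.24%) of 30 in the first comparison and 6 higher (8.37%) and 3 lower (5.50%) in the second.

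**Figure D1:**
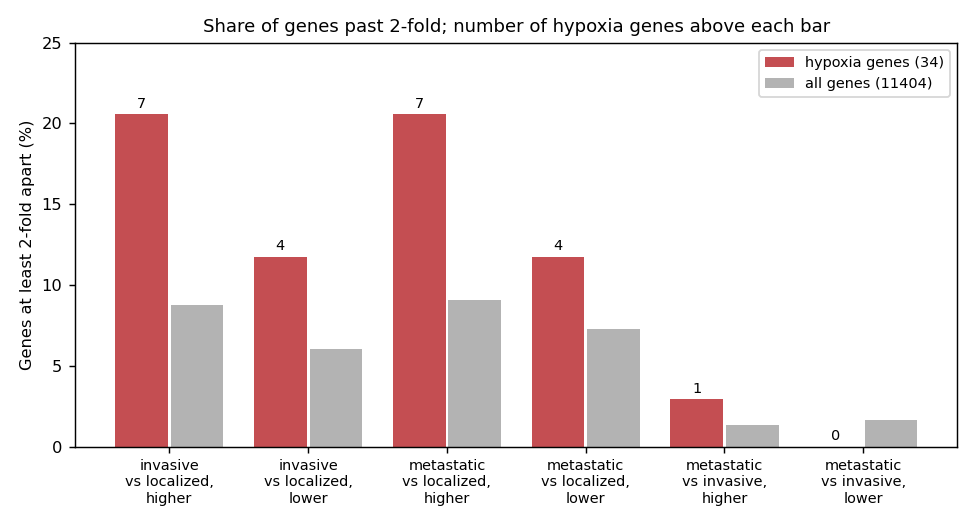
Share of genes at least 2-fold apart (percent, vertical axis) for each pair of libraries and direction, for the 34 hypoxia genes past the filter (red, with their number above the bar) and all 11404 genes (grey). The hypoxia genes had 7 higher and 4 lower in each comparison with the localized library, and 1 and 0 between the metastatic and invasive libraries.

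Of the 34 genes, 18 were highest in the metastatic line (31.3% of all genes), 7 in the invasive line (27.2%) and 9 in the localized line (41.6%). The localized library held the lowest value for 21 of the 34, and for 41.8% of all genes. Summed over the 36 genes, the levels were 2440 FPKM in the localized line, 3038 in the invasive line and 3484 in the metastatic line, which is 0.426%, 0.528% and 0.617% of each library's summed FPKM. Mif alone made up a large part of these sums, and without it they were 1594, 1864 and 2162 FPKM. In every pair of libraries, 14 of the 34 genes lay within 1.5-fold on the log2(FPKM + 1) scale, against 64.4% of all genes. The low gene Car12 is among the 14 only on that scale, since its localized FPKM was 1.65 times the invasive one.

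**Figure D2:**
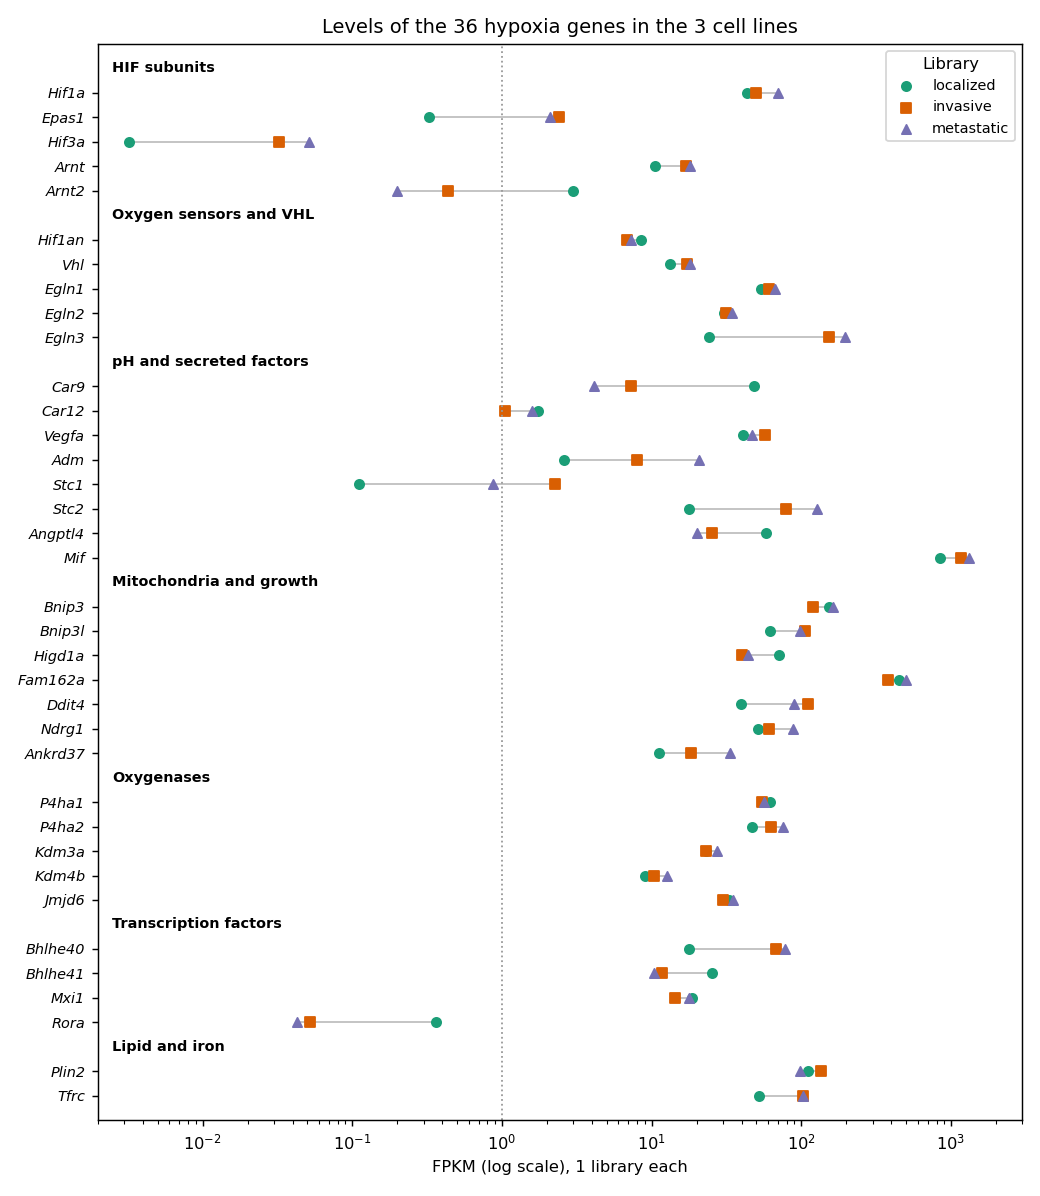
FPKM (horizontal log axis) of each of the 36 genes in the localized (circles), invasive (squares) and metastatic (triangles) library, 1 library each, grouped by role, with a dotted line at 1 FPKM. Egln3, Stc2, Adm and Bhlhe40 show the localized circle far to the left, Car9 and Arnt2 show it far to the right, and the oxygenase genes have their 3 points close together.

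Among the HIF subunits, Hif1a was by far the most abundant alpha chain in all 3 lines. Hif1a (GRCm38 chromosome 12, 73901375 to 73947530) had 43.4 FPKM in the localized line, 49.8 in the invasive line and 69.3 in the metastatic line. The highest value was 1.60 times the lowest, under the 2-fold rule. Epas1, which encodes HIF-2 alpha (chromosome 17, 86753700 to 86833410), had 0.325, 2.39 and 2.08 FPKM in the same order. The invasive over localized ratio was 7.34, with a 95% counting interval of 5.79 to 9.43 from about 523 and 79 fragments. That interval, like the others below, covers counting error only and rests on an exact binomial split of estimated fragments. Even where Epas1 was higher, Hif1a made up 95.4% (invasive) and 97.0% (metastatic) of the summed alpha-chain FPKM, against 99.2% in the localized line. Hif3a, whose products include inhibitory forms, had 0.0032, 0.032 and 0.051 FPKM, or about 1, 8 and 14 fragments, and was near the detection limit throughout.

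The beta subunits differed in opposite directions. Arnt, the general partner of the alpha chains, had 10.6 FPKM in the localized line, 17.1 in the invasive line and 18.1 in the metastatic line, differences of 0.64 and 0.72 on the log2(FPKM + 1) scale from the localized value. Its paralogue Arnt2, best known from neural tissue (chromosome 7, 84246278 to 84410176), had 2.98, 0.436 and 0.199 FPKM. The localized value was 6.83 times the invasive (counting interval 5.59 to 8.43) and 15.0 times the metastatic (11.4 to 20.3). Arnt2 thus made up 21.97% of the summed beta-chain FPKM in the localized line and 2.49% and 1.08% in the others.

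The oxygen sensors were alike in the 3 lines with 1 exception, Egln3. Hif1an, the asparagine hydroxylase that blocks coactivator binding, had 8.45 FPKM in the localized line, 6.82 in the invasive line and 7.31 in the metastatic line. Vhl, the substrate receptor of the ubiquitin ligase, had 13.2, 17.2 and 18.1 FPKM. Egln1, the main HIF prolyl hydroxylase in most cells, had 53.5, 60.4 and 67.0 FPKM, and Egln2 had 30.4, 31.2 and 34.3 FPKM. None of these 4 genes differed by as much as 1.5-fold between any pair of libraries, which also held for 64.4% of all genes. Egln3, a prolyl hydroxylase gene that is itself a classical HIF target (chromosome 12, 54178981 to 54203860), had 24.2 FPKM in the localized line, 152 in the invasive line and 195 in the metastatic line. Its differences from the localized library were 2.61 and 2.96, the metastatic one being the largest positive difference of the 34 genes. The metastatic over invasive ratio was 1.28, well under 2-fold. The order of the 3 hydroxylases was therefore not the same in every line: Egln3 was the lowest of them in the localized line, at 22.4% of their summed FPKM, and the highest in the invasive and metastatic lines, at 62.4% and 65.8%. The sum itself was 108 FPKM in the localized line, 244 in the invasive line and 296 in the metastatic line.

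**Figure D3:**
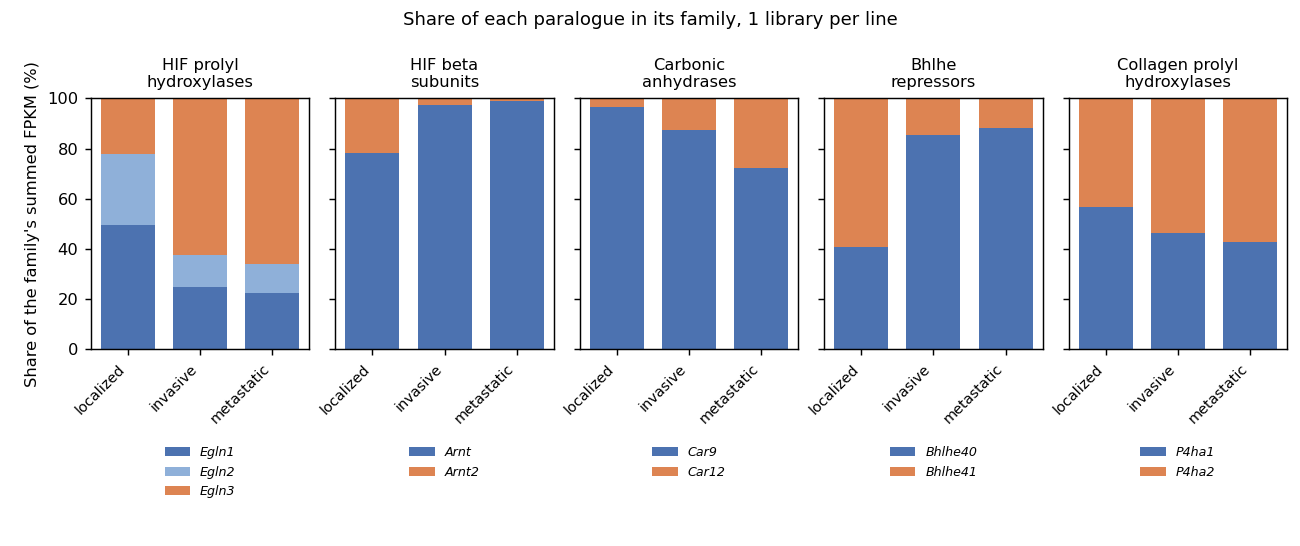
Share of each paralogue in the summed FPKM of its family (percent, vertical axis) in the localized, invasive and metastatic library, 1 library each, for 5 families. Egln3 goes from 22.4% in the localized to 65.8% in the metastatic line, Bhlhe40 from 41.0% to 88.2%, and Arnt2 from 21.97% to 1.08%.

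Of the 8 genes for pH control and secreted factors, 3 were at least 2-fold higher (8.78% of all genes) and 2 lower (6.07%) in the invasive against the localized library, and 2 (9.08%) and 2 (7.29%) in the metastatic against the localized. Car9, the membrane carbonic anhydrase widely used as a hypoxia marker (chromosome 4, 43506966 to 43513729), had 48.1 FPKM in the localized line, 7.23 in the invasive line and 4.15 in the metastatic line. The localized value was 6.65 times the invasive and 11.6 times the metastatic one, and the differences of -2.58 and -3.25 were the largest negative ones of the 34 genes. Car9 and Egln3, both textbook HIF targets, therefore lay at opposite ends of the order. Car12, a related membrane carbonic anhydrase, had 1.74, 1.06 and 1.60 FPKM, and its share of the pair's summed FPKM was 3.49% in the localized and 27.8% in the metastatic line.

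Adm, the precursor of the vasodilator adrenomedullin (chromosome 7, 110627661 to 110629820), had 2.58, 8.03 and 20.6 FPKM in stage order. On the log2(FPKM + 1) scale it alone of the 34 genes was past 2-fold between the metastatic and invasive libraries, and its FPKM ratio was 2.57 (counting interval 2.29 to 2.89). As FPKM ratios, without the pseudocount, the low genes Stc1 and Arnt2 were past 2-fold as well, with the invasive value 2.60 and 2.19 times the metastatic one. Stc2, a stanniocalcin that is secreted and also responds to endoplasmic reticulum stress (chromosome 11, 31357307 to 31370074), had 17.8, 79.4 and 128 FPKM, with differences of 2.10 and 2.78 from the localized library. Its relative Stc1 was far lower, with 0.1104, 2.26 and 0.871 FPKM, and the localized value stood for about 20 fragments. Stc1 was highest in the invasive line, 20.5 times the localized value (13.2 to 34.3) and 2.60 times the metastatic one (2.15 to 3.17). The pseudocount decides 2 of its calls: its metastatic minus localized difference was 0.75 with a pseudocount of 1 and 2.21 with 0.1, and its metastatic minus invasive difference was -0.80 and -1.28.

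Angptl4, a secreted inhibitor of lipoprotein lipase that PPAR factors also control (chromosome 17, 33773750 to 33781830), had 57.9 FPKM in the localized line, 25.3 in the invasive line and 20.1 in the metastatic line. Its differences from the localized library were -1.17 and -1.48. Vegfa, the main angiogenic growth factor of the response, had 40.6, 57.6 and 46.9 FPKM, and no pair differed by 1.5-fold. Mif, a secreted cytokine, was the most abundant of all 36 genes with 845, 1174 and 1322 FPKM, which placed it among the highest 1 percent of genes in each library. Its metastatic minus localized difference was 0.64.

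**Figure D4:**
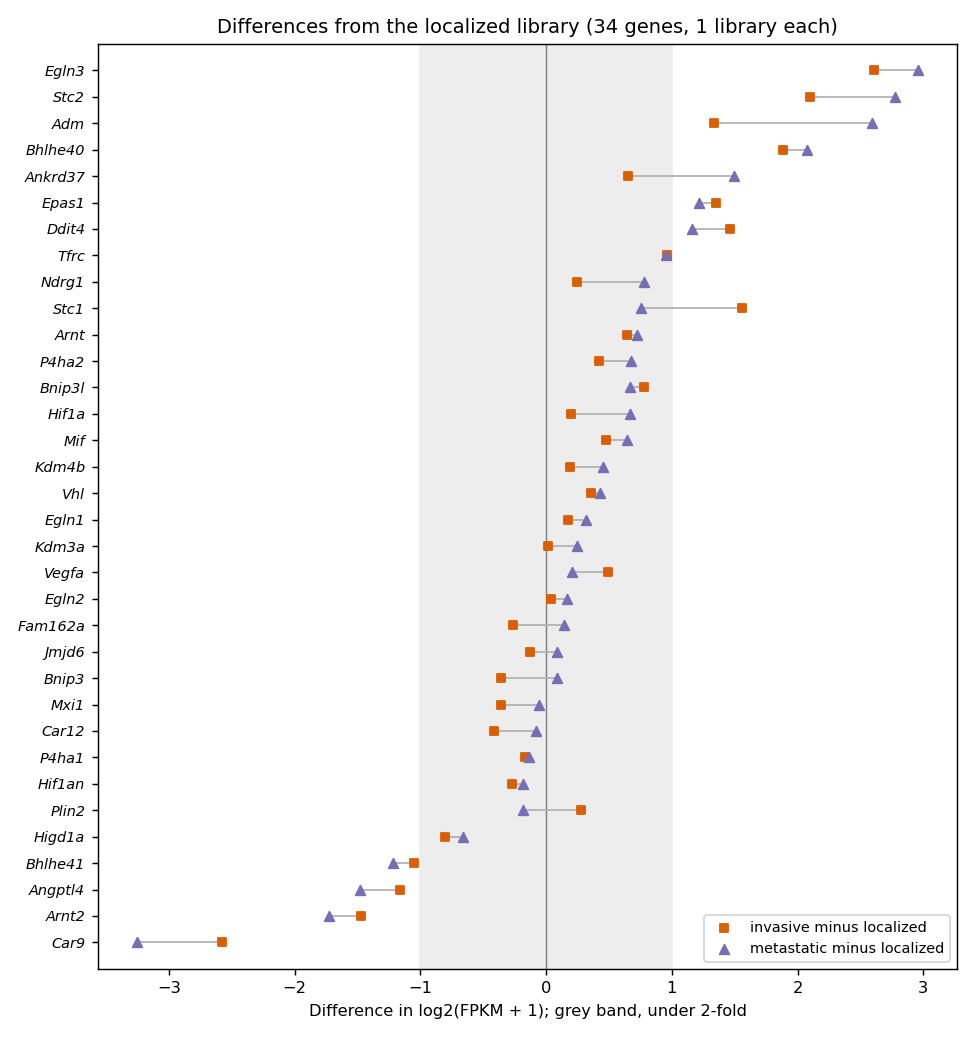
Differences in log2(FPKM + 1) of the invasive (squares) and metastatic (triangles) library from the shared localized library for the 34 genes past the filter, sorted by the metastatic difference, with the range under 2-fold in grey. Egln3 (2.96), Stc2 (2.78) and Adm (2.59) lie at the top and Car9 (-3.25) at the bottom.

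Of the 7 genes of mitochondria and growth control, 1 was past 2-fold higher in invasive against localized (8.78% of all genes). In metastatic against localized 2 were (9.08%). None was past 2-fold lower in these comparisons (6.07% and 7.29% of all genes). Between metastatic and invasive none was past 2-fold higher (1.33%) or lower (1.67%). The mitophagy receptor Bnip3 had 153 FPKM in the localized line, 119 in the invasive line and 162 in the metastatic line, and Bnip3l had 61.4, 106 and 98.1 FPKM. Fam162a, a mitochondrial protein linked to cell death, had 452, 377 and 500.3 FPKM. Higd1a, a small protein of the inner mitochondrial membrane, was highest in the localized line with 70.7, 40.0 and 44.3 FPKM, differences of -0.81 and -0.66. Ndrg1, a stress-responsive gene, had 51.3, 60.9 and 88.6 FPKM. None of these 5 was past 2-fold in any pair. By the shares above most of all genes were not either, so this does not set the 5 apart.

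Ddit4, which restrains mTORC1 and is also a target of p53 and of the integrated stress response (chromosome 10, 59949669 to 59951834), had 39.2 FPKM in the localized line, 110 in the invasive line and 89.1 in the metastatic line. The differences from the localized value were 1.47 and 1.16. Ankrd37, an ankyrin-repeat gene that HIF activates (chromosome 8, 45996902 to 46005707), had 11.3, 18.2 and 33.6 FPKM, with a metastatic minus localized difference of 1.497. Of its 1539 exon bases, 406 are shared with Lrp2bp and Ufsp2 on the other strand. Reads of such partners cannot be separated here, since no source used here states whether counting used strand. Of the 36 genes, 15 share some exon bases with another annotated gene.

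Of the 5 oxygenase targets, 0 were past 2-fold in any pair. Of all genes, 8.78% were higher and 6.07% lower in the invasive against the localized library. These shares were 9.08% and 7.29% for metastatic against localized, and 1.33% and 1.67% for metastatic against invasive. For as few as 5 genes, 0 is near these shares. P4ha1 and P4ha2, catalytic subunits of the enzyme that hydroxylates proline in collagen, had 61.8, 54.8 and 56.1 FPKM and 46.9, 63.0 and 75.3 FPKM in stage order. P4ha1 was the higher of the pair in the localized line (56.9% of their sum) and P4ha2 in the metastatic line (57.3%). The histone demethylases Kdm3a (22.9, 23.2 and 27.3 FPKM) and Kdm4b (8.996, 10.4 and 12.6 FPKM) and the lysyl hydroxylase Jmjd6 (33.0, 30.1 and 35.0 FPKM) stayed within 1.5-fold in every pair, as did 64.4% of all genes. The fibroblast markers given above, collagen chains among them, were far higher in the localized line. P4ha1 differed by at most 0.17, and P4ha2 was higher in the metastatic than in the localized line by 0.67. A relation of either gene to these markers was not tested.

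Among the transcription factors the 2 Bhlhe repressors lay in opposite directions. Bhlhe40 (chromosome 6, 108660629 to 108666925), known as DEC1, had 17.6 FPKM in the localized line, 67.9 in the invasive line and 77.7 in the metastatic line, with differences of 1.89 and 2.08. Bhlhe41, its paralogue on the same chromosome (145858243 to 145865558), had 25.4, 11.7 and 10.4 FPKM, with differences of -1.05 and -1.22. Bhlhe40 accordingly made up 41.0% of their summed FPKM in the localized line and 85.3% and 88.2% in the others. The invasive call of Bhlhe41 lies close to the 2-fold threshold, and 1280 of its 6720 exon bases are shared with Gm43909 on the other strand. Mxi1, an antagonist of Myc, had 18.5, 14.2 and 17.8 FPKM. The nuclear receptor gene Rora was low in all 3 lines with 0.363, 0.052 and 0.043 FPKM, for which about 177, 23 and 20 fragments were estimated. The localized value was 6.96 times the invasive (counting interval 4.48 to 11.2) and 8.44 times the metastatic (5.32 to 14.2).

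Plin2, which coats lipid droplets, had 111 FPKM in the localized line, 135 in the invasive line and 97.7 in the metastatic line. Tfrc, the transferrin receptor that brings iron into cells and is controlled through iron-responsive elements as well as HIF, had 52.3, 103 and 102 FPKM. Its differences from the localized library, 0.96 and 0.95, were just short of 2-fold.

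Along the stages as labelled, 3 of the 34 genes were at least 1.5-fold higher at both steps (8.82%, against 1.47% of all genes): Adm, Stc2 and Ankrd37. Only Car9 was at least 1.5-fold lower at both steps (2.94%, against 1.54% of all genes), and 1 gene of 34 is near that share. The smallest of the 8 steps was 0.65, for Ankrd37 from the localized to the invasive library.

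Promoter sequence was compared because HIF binds a known core element. RefSeq windows of 300 bases (250 before to 50 after the start of transcription, GRCm38.p6) were matched by symbol for 29 of the 36 genes, and the 7 without one were Epas1, Stc1, Angptl4, Bnip3l, Ndrg1, Kdm4b and Bhlhe40. ACGTG, searched on both strands, was found for 20 of the 29 genes (69.0%), against 21.8% of 27025 genes with a window. GCGTG, also on both strands, was found for 20 of 29 (69.0%), against 35.2% of genes. The members' windows were rich in CG dinucleotides, with a median of 25 against 7 over all windows, and both motifs contain CG. Counted by window and not by gene, ACGTG was in 61.1% of the 36 windows of the members and in 19.6% of all windows. Among the 6053 windows with at least 25 CG, 29.5% held ACGTG. The 61.1% covers the members' windows of any CG content, so these shares are not of like sets. Shares at that CG content are not given for the members' windows or for GCGTG. The 36 genes are known HIF targets and regulators, so a high share is part of how they were chosen.

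ACGTG was present in genes at both ends of the expression order, but not in all of them. The windows of Adm and Stc2, both lowest in the localized line, held GCGTG and not ACGTG. Stretches of 80 bases with ACGTG are shown first for Egln3, Ddit4 and Ankrd37, lowest in the localized line, then for Car9 and Bhlhe41, highest there, and last for P4ha1, Bnip3, Fam162a and Egln1, which were within 2-fold. Each reads 5′ to 3′ on the strand of its gene, and capitals mark ACGTG or its reverse complement CACGT, which overlap where the letters read CACGTG.
Egln3, chr12:54204045-54204124, minus strand: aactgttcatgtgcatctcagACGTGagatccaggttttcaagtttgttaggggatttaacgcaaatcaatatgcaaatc
Ddit4, chr10:59951915-59951994, minus strand: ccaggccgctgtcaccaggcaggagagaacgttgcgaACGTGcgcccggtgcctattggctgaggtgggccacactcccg
Ankrd37, chr8:45999831-45999910, minus strand: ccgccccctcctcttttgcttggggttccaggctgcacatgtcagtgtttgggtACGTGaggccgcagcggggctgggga
Car9, chr4:43506966-43507045, plus strand: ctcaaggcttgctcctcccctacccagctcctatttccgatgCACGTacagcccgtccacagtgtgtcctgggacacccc
Bhlhe41, chr6:145865530-145865609, minus strand: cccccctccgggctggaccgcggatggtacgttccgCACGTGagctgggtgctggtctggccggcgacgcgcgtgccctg
P4ha1, chr10:59323236-59323315, plus strand: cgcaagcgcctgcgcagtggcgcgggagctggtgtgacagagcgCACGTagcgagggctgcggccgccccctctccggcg
Bnip3, chr7:138909571-138909650, minus strand: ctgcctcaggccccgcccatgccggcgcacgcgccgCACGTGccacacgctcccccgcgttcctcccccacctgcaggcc
Fam162a, chr16:36071600-36071679, minus strand: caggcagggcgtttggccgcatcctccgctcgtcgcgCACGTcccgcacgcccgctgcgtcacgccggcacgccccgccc
Egln1, chr8:124949280-124949359, minus strand: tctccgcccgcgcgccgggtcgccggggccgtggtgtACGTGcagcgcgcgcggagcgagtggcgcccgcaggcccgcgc

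In Car9 the match began 18 bases before the RefSeq start and in P4ha1 16 bases before it, both as CACGT, so that ACGTG lies on the opposite strand. In Ankrd37 it began 6 bases before the start and in Egln1 68 bases before. In Egln3 the single match began 229 bases before the start, in Ddit4 187 bases, in Bnip3 107 bases and in Bhlhe41 152 bases. The windows of Vhl, Hif1an, Arnt2 and Car12 held neither motif. Such a match describes the letters of these windows and is not a measured binding site.

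Other genes of the pathway were set beside the 36 through 4 lists. The first held the ligase partners of Vhl, the HIF coactivators and other regulators of HIF stability. The table had 16 such genes, of which 15 passed the filter, and 0 were past 2-fold on the log2(FPKM + 1) scale in any pair. Of all genes, 8.78% were higher and 6.07% lower in the invasive against the localized library. These shares were 9.08% and 7.29% for metastatic against localized, and 1.33% and 1.67% for metastatic against invasive. The median metastatic minus localized difference of the list was -0.04. The furthest were Siah2, a ubiquitin ligase for prolyl hydroxylases, with 5.01, 10.2 and 10.6 FPKM (differences of 0.90 and 0.94 from the localized library), and Cited2, which competes with HIF for coactivators, with 79.5, 53.1 and 47.1 FPKM.

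Glycolytic HIF targets were mostly a little higher in the invasive and metastatic lines. Of the 23 that passed the filter, 4 were higher by 2-fold or more (8.78% of all genes) and 2 lower (6.07%) in the invasive against the localized library, and 4 (9.08%) and 1 (7.29%) in the metastatic against the localized. The numbers lower are near the shares over all genes. Their median differences were 0.34 and 0.40. Hk2, an inducible hexokinase, had 15.9, 63.2 and 74.2 FPKM in stage order. Aldoc, an aldolase, had 4.84, 23.0 and 24.4 FPKM, and Pfkfb3, which makes an activator of glycolysis, had 4.89, 11.4 and 22.9 FPKM. In the other direction, the enolase Eno2 had 10.2, 0.692 and 0.272 FPKM, and it passed the filter only through the localized library.

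A further list of 48 HIF targets in the table, of which 40 passed the filter, had 8 higher (8.78% of all genes) and 4 lower (6.07%) in the invasive against the localized library, with a median of 0.09. In the metastatic against the localized library it had 8 higher (9.08%) and 5 lower (7.29%), with a median of 0.28, and the 4 largest differences of that comparison were all of genes higher in the localized line. Lox, the collagen crosslinker, had 74.0, 1.49 and 0.305 FPKM, and the heme oxygenase Hmox1 had 84.9, 16.8 and 20.9 FPKM. Transferrin, Trf, had 6.47, 1.09 and 0.491 FPKM, and the fucosyltransferase Fut11 had 5.52, 0.582 and 0.457 FPKM. Lox, Trf and Fut11 passed the filter only through the localized library, so that being called lower elsewhere is partly built into their passing. Genes counted as higher can pass in the same way through the invasive and metastatic libraries. Counts with the stricter minimum of 5 FPKM are not given for these lists. Lox is also typical of fibroblasts, whose markers went from 529 FPKM in sum (localized) to 8.53 (metastatic). Whether that difference bears on Lox was not tested.

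**Figure D5:**
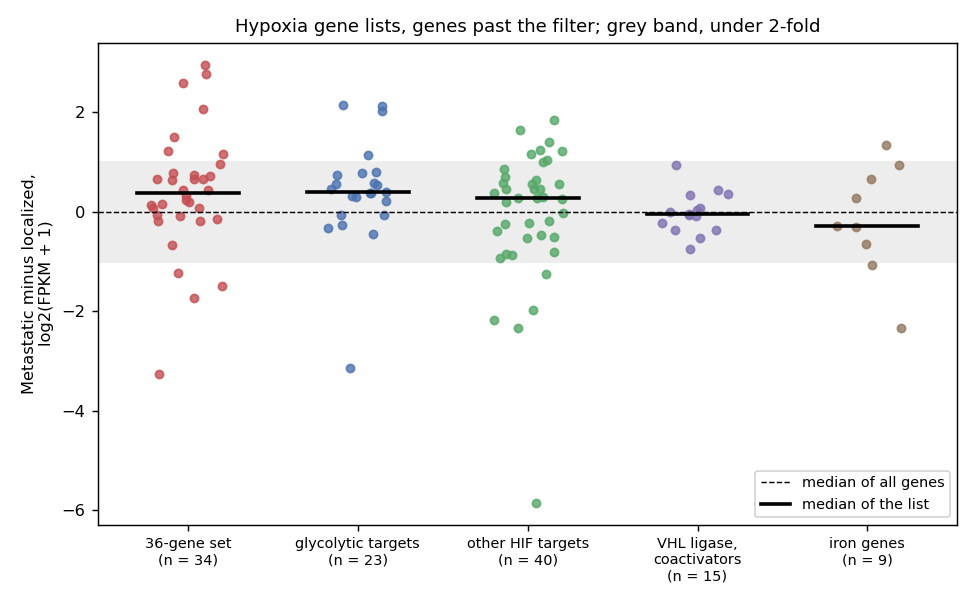
Metastatic minus localized difference in log2(FPKM + 1) of each gene past the filter in the 36-gene set and 4 other lists of the pathway, with the list median as a bar and the median of all genes dashed. The medians are 0.38 for the 36-gene set, 0.40 for glycolytic targets, 0.28 for other HIF targets, -0.04 for the ligase and coactivator list and -0.29 for iron genes, and Lox is the lowest point.

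Iron genes were listed because Tfrc and the hydroxylases depend on iron. The filter left 9, of which 2 were higher (8.78% of all genes) and 3 lower (6.07%) by 2-fold or more in the invasive against the localized library. In the metastatic against the localized library 1 was higher (9.08%) and 2 were lower (7.29%). Trf, which passed the filter only through the localized library, is counted here as lower and in the list before as well. Slc40a1 (0.362, 1.89 and 1.64 FPKM), counted as higher in the invasive library, passed only through the invasive and metastatic libraries. Being called higher there is thus partly built into its passing. Beside Tfrc, the ferritinophagy receptor Ncoa4 was higher outside the localized line with 34.8, 76.4 and 90.2 FPKM. The ferritin heavy chain Fth1 was lower there with 3869, 1795 and 2489 FPKM, as was the iron reductase Steap3 with 24.3, 7.93 and 11.1 FPKM.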

How the data were processed

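RNA-seq of 3 cell lines, 1 library each, was analysed from a table of FPKM per gene symbol deposited by the authors. Libraries were made with the TruSeq kit from 1 ug of Trizol-extracted total RNA, per the labels' protocols. The GRCm38 build and the tools Cufflinks 2.2.1, STAR 2.5.2a and FastQC 0.11.2 are listed, without roles, per the submitters' processing notes. The lowest deposited FPKM was 0.1 in each column, so 0.1 was read as an added offset and subtracted. Of 22784 entries, 27 with a number in place of a symbol and 18 short or ribosomal RNAs were left out, leaving 22739 genes. A further pseudocount of 1 was used on the log2 scale. No test was possible with 1 library per stage, and groups come from the stage label.

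The table gives no counts. Depth was estimated from genes with a single GENCODE M21 transcript, as the depth and the length subtracted for fragment size (180 bases) that brought low values nearest to whole fragments. Within 0.05 of a whole number lay 71.5%, 72.6% and 71.4% of the values used for the localized, invasive and metastatic library, against 10.0% for evenly spread values. Depth and length were chosen to make this share largest, whereas 10.0% holds for a fixed setting, so the gap is overstated. Fragments per gene use the longest coding transcript and are approximate. Calls and depth estimates were tested on simulated data. Python 3.11.15, numpy 2.4.6, pandas 2.3.3 and scipy 1.17.1 were used.

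All 36 genes could be named, with up to 4 genes of largest difference from each other list. Slc40a1 was named in addition, for how it passed the filter. The genes and lists were chosen with earlier results of these data known. The rules of size and the alternatives (pseudocount, filter, offset, scaling and fold threshold) were taken over with them.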

Additional observations from a re-analysis of the deposited data

How the results depend on the processing

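Counts of called genes and medians were recomputed with a pseudocount of 0.1, no filter on low values, a minimum mean of 5 FPKM, the 0.1 offset left in, centring on the median of all genes, rescaling to equal sums and other fold thresholds. No called difference of a gene changed sign under any of these. Centring, rescaling, the offset and the stricter filter left every count within 1.5 times its reported value, and the median of all genes lay within 0.01 of 0 in each pair. Calling at 1.5-fold gave 11 in place of 7 genes higher for invasive against localized, 15 in place of 7 for metastatic against localized, and 3 higher and 2 lower in place of 1 and 0 for metastatic against invasive. A pseudocount of 0.1 gave 1 lower gene, Stc1, in the last comparison and 2 genes in place of 1 lower at both steps. Steps of 1.2-fold also gave 2 genes lower at both steps. Without the filter the median for metastatic against localized was 0.28 in place of 0.38. No paired analysis was possible because each stage has 1 library. The lack of replicates, and of counts in the table, limits all values, most of all for Hif3a, Rora and Stc1.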

Other observations

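A few genes of the wider pathway lists, chosen after their values were seen, add to the account of the 36 genes. Ero1l, an oxidase of disulfide formation in the endoplasmic reticulum, had 64.6, 263 and 203 FPKM in stage order (localized first), differences of 2.01 and 1.64 from the localized library in log2(FPKM + 1). Hilpda, a hypoxia-inducible protein of lipid droplets, had 25.9, 47.7 and 95.3 FPKM, the same order of lines as Adm, Stc2 and Ankrd37, whereas the lipid droplet protein Plin2 was lowest in the metastatic line. Ier3, a stress-induced survival gene, had 143, 469 and 339 FPKM. Rab20, a small GTPase, had 2.18, 8.77 and 6.44 FPKM. Flt1, a VEGF receptor that HIF can induce, was measured at 23.1, 17.6 and 9.198 FPKM. The hypoxia-associated genes Ak4 (7.71, 5.81 and 12.03 FPKM) and Ccng2 (39.4, 37.1 and 54.3 FPKM) were highest in the metastatic library and did not reach 2-fold in any pair on the log2(FPKM + 1) scale, where the metastatic minus invasive difference of Ak4 was 0.94. Epo was listed at 0 in all 3 libraries.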
